A study of Mus musculus with 16 samples.

Results

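The genes of MHC class I antigen presentation were followed in the RNA of sorted mouse Paneth cells (PCs), the secretory cells at the base of the small intestinal crypts. The set holds 10 genes fixed by name: the class I heavy chains H2-K1 and H2-D1 and their light chain B2m, the peptide transport and loading genes Tap1, Tap2 and Tapbp, the immunoproteasome subunits Psmb8, Psmb9 and Psmb10, and the class I transactivator Nlrc5. They are 10 of the 55414 genes in the deposited count table. All 10 had counts and all 10 passed the filter on low counts, with 11809 genes in all.

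Class I molecules show short peptides from proteins made inside a cell to cytotoxic T cells. The proteasome cuts the proteins, the TAP transporter carries the peptides into the endoplasmic reticulum, and tapasin (Tapbp) helps to load them onto a heavy chain paired with beta-2-microglobulin. Inflammatory signals such as interferons and tumour necrosis factor (TNF) are known to raise these genes in many cell types, among other routes through NF-kB and IRF1, and to replace the constitutive catalytic subunits of the proteasome by the immunoproteasome subunits.

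Mice received a first injection of PBS or DEX and, 1 h later, a second injection of PBS or TNF, and PCs were sampled 3 h after the second injection. The 4 groups are named by the first and then the second injection and hold 4 libraries each: DEX+TNF, DEX+PBS, PBS+TNF and, as the control, PBS+PBS. Per the study's methods, the mice were C57BL/6J, each sample came from an individual mouse, and PCs were isolated by FACS; ages per library are not given in the sources used here. The sources do not spell out DEX, which usually stands for dexamethasone, a glucocorticoid. Libraries carried 7286307 to 15832111 counts. The PC marker Lyz1 stood at 41288 to 222948 normalised CPM (counts over the library total, after scaling with TMM factors, times 1000000), and 9 of 20 immune cell markers, among them Cd3e and Cd4, were at 0 in all 16 libraries. The immune markers other than Lyz2 summed to 0 to 22.9 CPM in DEX+TNF, with 22.9 in library 4, to 0.612 to 2.91 CPM in DEX+PBS, to 0.301 to 4.92 CPM in PBS+TNF and to 0 to 1.13 CPM in PBS+PBS. With Lyz2, the immune list summed to 23.4 to 116 CPM over the 16 libraries. Of 9 endothelial and stromal markers, 4 were at 0 in all libraries, and the list summed to at most 0.970 CPM. Markers of other epithelial cells were present: the goblet list summed to 2535 to 10341 CPM and the stem and cycling list to 268 to 1330 CPM. The part of such cells in the class I values was not tested.

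DEX+TNF libraries 3 and 4 differed from the other libraries with TNF in 2 genes that respond to it. Nfkbia and Tnfaip3, 2 direct targets of NF-kB, stood at 277 to 337 and 58.9 to 86.0 CPM in PBS+TNF, and at 330.0 to 382 and 109.6 to 115 CPM in DEX+TNF libraries 1 and 2. In DEX+TNF libraries 3 and 4 they stood at 28.3 and 41.0 CPM for Nfkbia and 2.25 and 7.38 CPM for Tnfaip3. The groups without TNF were at 15.6 to 24.1 and 3.13 to 6.53 CPM (PBS+PBS) and at 19.5 to 27.3 and 0.687 to 4.13 CPM (DEX+PBS). By label these libraries had DEX before TNF, and the reason for their low values was not tested. The main results for the members that rest on DEX+TNF are therefore also given without libraries 3 and 4. List medians and counts of groups that do not overlap are given only with them. A second difference between libraries lay in the share of alpha-defensin (Defa) counts, which was 54.5% in PBS+PBS library 4 and 59.3% in PBS+TNF library 1 and 32.2% to 49.3% in the others. The scaling factors of these libraries, 0.503 and 0.418, were the lowest.

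Of the 10 genes, 7 lie on chromosome 17 in the mouse MHC (GRCm39). In order of start these are Tapbp (ENSMUSG00000024308, 34134873 to 34148267, plus strand), H2-K1 (ENSMUSG00000061232, 34214987 to 34219321, minus strand), Psmb9 (ENSMUSG00000096727, 34400960 to 34406738, minus strand), Tap1 (ENSMUSG00000037321, 34405996 to 34416199, plus strand), Psmb8 (ENSMUSG00000024338, 34416690 to 34420428, plus strand), Tap2 (ENSMUSG00000024339, 34422501 to 34435829, plus strand) and H2-D1 (ENSMUSG00000073411, 35481691 to 35486475, plus strand). Psmb9, Tap1, Psmb8 and Tap2 are direct neighbours in this order, so that a pair of transporter genes alternates with a pair of proteasome genes. Outside the MHC, B2m lies on chromosome 2 (ENSMUSG00000060802, 121977957 to 121983594, plus strand), and Nlrc5 (ENSMUSG00000074151, 95160984 to 95253900, plus strand) and Psmb10 (ENSMUSG00000031897, 106662362 to 106665077, minus strand) lie on chromosome 8. In the GENCODE annotation, Tap1 and Psmb9 overlap by 743 bases on opposite strands, and B2m lies within Patl2 on the opposite strand. Tapbp overlaps Zbtb22 by 3422 bases on the same strand. Whether the counting used strand is not stated, so reads from such overlaps cannot be assigned with certainty. Of the 75-base words of the canonical transcript, 6.85% of H2-D1, 1.55% of H2-K1 and 1.03% of Tapbp recur in another gene, and none of the other 7 members.

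The 250 bases upstream of the RefSeq transcription start are shown for H2-K1 and H2-D1. Of these only H2-D1 was called with TNF, and their windows were alike. The bases are also shown for B2m and Tap1, a gene with a small and a gene with a large log2 fold change. The sequences are from RefSeq on GRCm38.p6 and run 5′ to 3′: chr17:34000348-34000597 on the minus strand for H2-K1 (the first of its 2 listed starts), chr17:35262844-35263093 on the plus strand for H2-D1, chr2:122147437-122147686 on the plus strand for B2m and chr17:34187306-34187555 on the plus strand for Tap1. Capitals mark matches, on either strand, to 5 short motifs: NF-kB (GGNNNTTCC), IRF (AANNGAAA), GAS, the interferon-gamma activated site (TTCNNNGAA), the CRE half-site of the class I X box (TGACG) and the CCAAT box bound by NF-Y (CCAAT). No matches overlap in these windows.
H2-K1: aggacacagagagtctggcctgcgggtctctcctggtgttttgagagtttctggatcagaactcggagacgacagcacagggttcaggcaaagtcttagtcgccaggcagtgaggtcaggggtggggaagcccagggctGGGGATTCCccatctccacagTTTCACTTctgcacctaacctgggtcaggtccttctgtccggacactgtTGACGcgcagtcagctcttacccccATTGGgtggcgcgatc
H2-D1: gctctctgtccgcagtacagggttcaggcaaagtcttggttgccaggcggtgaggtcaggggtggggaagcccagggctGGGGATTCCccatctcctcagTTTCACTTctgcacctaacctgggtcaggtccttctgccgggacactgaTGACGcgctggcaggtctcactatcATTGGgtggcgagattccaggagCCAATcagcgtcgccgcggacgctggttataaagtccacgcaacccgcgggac
B2m: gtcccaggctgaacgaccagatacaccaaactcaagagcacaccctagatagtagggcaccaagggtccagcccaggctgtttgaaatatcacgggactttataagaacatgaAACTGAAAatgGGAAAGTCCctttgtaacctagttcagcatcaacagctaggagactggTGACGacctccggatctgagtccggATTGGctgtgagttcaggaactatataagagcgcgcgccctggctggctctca
Tap1: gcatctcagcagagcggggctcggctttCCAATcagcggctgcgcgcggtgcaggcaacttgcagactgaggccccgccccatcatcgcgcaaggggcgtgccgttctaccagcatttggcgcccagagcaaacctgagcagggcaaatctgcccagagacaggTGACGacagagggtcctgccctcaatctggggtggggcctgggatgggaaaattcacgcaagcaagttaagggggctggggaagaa

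Over the aligned bases, the windows of H2-K1 and H2-D1 were identical at 174 of 190 positions (91.6%). Both held 1 NF-kB, 1 IRF and 1 CRE match, in the same order, as did B2m with the IRF match upstream of the NF-kB match. The Tap1 window held a CRE and a CCAAT match and neither an NF-kB nor an IRF match. It shares 225 of its 250 bases with the window of Psmb9, which is read in the opposite direction. In RefSeq the starts of Tap1 and Psmb9 lie apart, while their GENCODE genes overlap, so the annotations differ on these starts. Of the 8 members with a RefSeq window, 3 held an NF-kB match, 3 an IRF match and 1 (Psmb8) a GAS match. A CRE match was in 5 and a CCAAT match in 6. The CRE and CCAAT matches of Tap1 and Psmb9 are the same bases read from opposite strands, counted for each gene. Of 32851 windows of all genes, 15.7%, 21.3%, 7.02%, 17.8% and 33.8% held these motifs. A match only says that the letters are present in the window.

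In PCs of PBS+PBS mice the light and heavy chains stood far above the other members. Per transcript length, B2m had 194 ± 28.8 CPM per kilobase (mean ± SD, n = 4), H2-K1 191 ± 61.0 and H2-D1 84.1 ± 23.4. The ranges of B2m and H2-K1 overlapped, and H2-D1 was below both in all 4 libraries. Tapbp (11.5 ± 2.31 CPM per kilobase) and Psmb10 (14.6 ± 9.62) followed with overlapping ranges. Psmb8 (4.19 ± 1.85), Psmb9 (3.03 ± 2.51), Tap1 (2.26 ± 0.441) and Tap2 (2.08 ± 0.650) formed a lower level at which each neighbour in the order overlapped the next. Nlrc5 was the lowest by a wide margin, at 0.0805 ± 0.0923 CPM per kilobase and 2 to 31 counts per library. The members also differed in how much the 4 PBS+PBS libraries spread. The highest library was 1.39 times the lowest for B2m, 1.57 times for Tap1 and 1.89 times for H2-K1, but 3.78 times for Psmb8, 4.00 times for Psmb10, 8.64 times for Nlrc5 and 14.5 times for Psmb9.

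Setting PBS+TNF against PBS+PBS asks how the PCs responded to TNF within 3 h. Of the 10 genes, 7 rose at an adjusted p under 0.05 (edgeR quasi-likelihood test, Benjamini-Hochberg): all 3 transport and loading genes, all 3 immunoproteasome subunits and the heavy chain H2-D1. No member was called lower. Among all genes tested 12.5% were called in either direction and 7.15% higher. The members were chosen with earlier results of these data known, so these shares are no independent yardstick. The median log2 fold change was 1.84 over the 10 members and -0.03 over all genes tested. In 9 of the 10 genes, all but H2-K1, the 4 PBS+TNF libraries lay above the 4 PBS+PBS libraries, as in 10.8% of all genes tested. In these bulk samples, a change in RNA per cell cannot be told apart from a change in the share of cells that carry it.

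**Figure D1:**
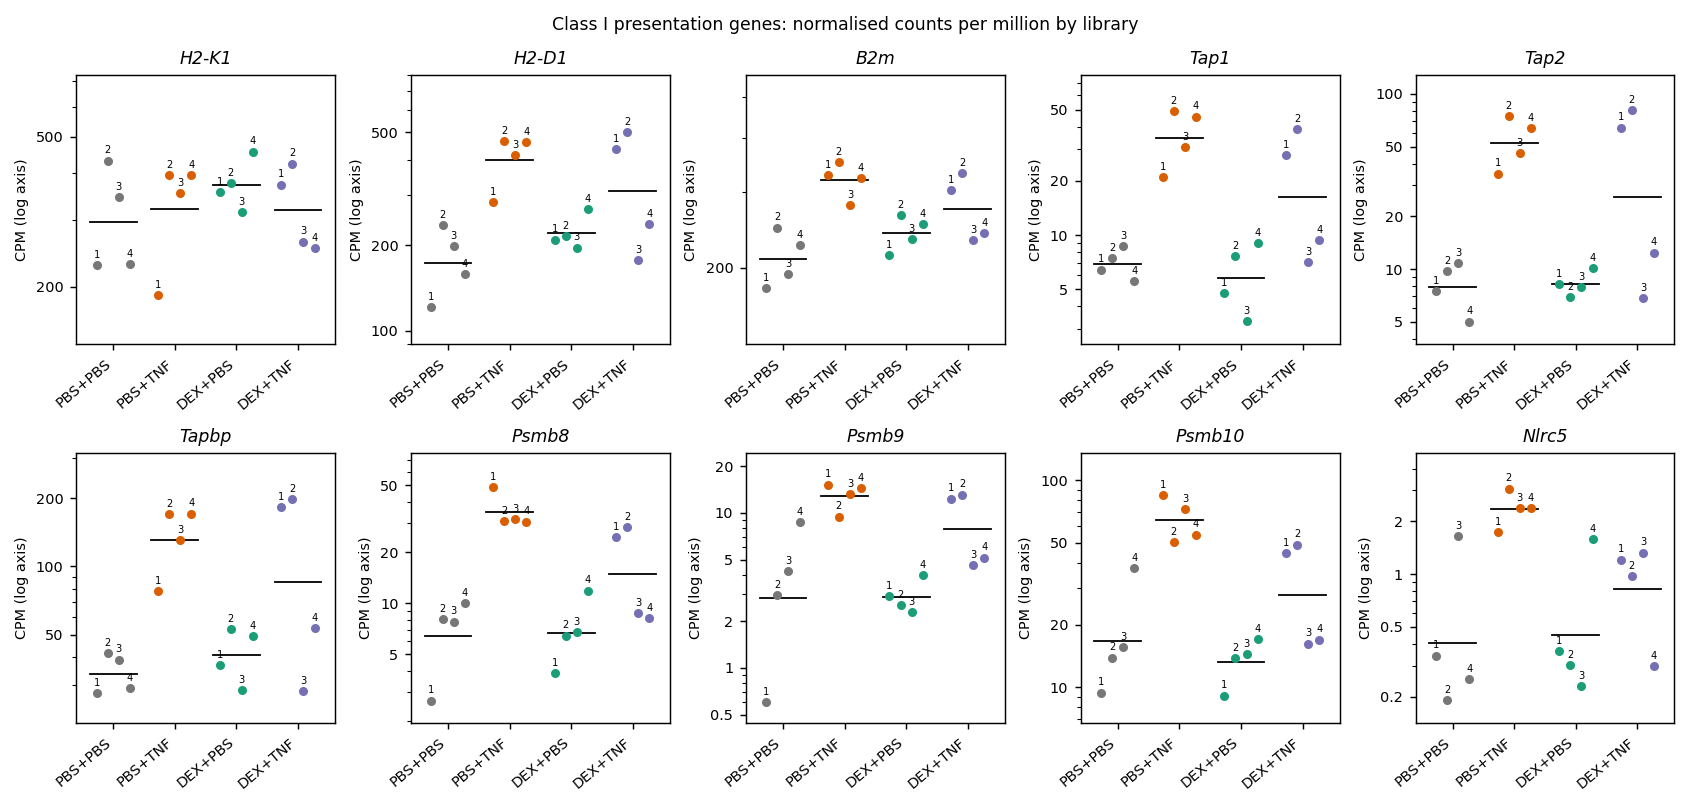
Normalised CPM of the 10 class I presentation genes in each of the 16 libraries (vertical log axis, a separate scale for each gene); points are libraries with their replicate number, and horizontal bars are the geometric mean of 4 libraries. In 9 panels the PBS+TNF points lie above all PBS+PBS points, and in most panels DEX+TNF libraries 1 and 2 lie well above libraries 3 and 4.

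Of the heavy chains, which carry the peptide, H2-D1 passed the threshold and H2-K1 did not, and the difference between them was not tested. H2-K1 was at 229, 432, 346 and 229.6 CPM in PBS+PBS libraries 1 to 4 and at 190.3, 396, 354 and 396 CPM in PBS+TNF libraries 1 to 4. The groups overlapped, and the log2 fold change was 0.11 (SE 0.29, adjusted p = 0.866 by edgeR), or -0.00041 with upper-quartile scaling. H2-D1 was at 121, 235, 198 and 158 CPM in PBS+PBS and at 284, 465, 415 and 463 CPM in PBS+TNF. Every PBS+TNF library exceeded every PBS+PBS library, and the log2 fold change was 1.19 (SE 0.32, adjusted p = 0.0200 by edgeR). The H2-D1 call was lost when PBS+PBS library 1 or PBS+TNF library 2 or 4 was left out, with a log2 fold change of 1.05 to 1.36 and an adjusted p of 0.00881 to 0.0733 over the 16 libraries left out in turn.

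The ratio of H2-D1 to H2-K1 within a library, per transcript length, removes the scaling between libraries. It was chosen after the values had been seen and is given without a test. It stood at 0.404, 0.416, 0.438 and 0.528 in PBS+PBS, at 0.449, 0.438, 0.476 and 0.449 in DEX+PBS, and at 1.14, 0.899, 0.896 and 0.895 in PBS+TNF. H2-K1 was thus the heavy chain with more RNA per transcript length in all 8 libraries without TNF, and the 2 were about level in PBS+TNF. The level depends on the annotated lengths. In CPM, which takes no account of length, H2-D1 was above H2-K1 in every PBS+TNF library and below it in every library without TNF. DEX+TNF libraries 1 and 2 were at 0.895 and 0.903, and libraries 3 and 4 at 0.515 and 0.716.

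B2m, the invariant light chain of all class I molecules, was at 179, 248, 193 and 225 CPM in PBS+PBS and at 328, 352, 280.1 and 324 CPM in PBS+TNF. The groups did not overlap, but the log2 fold change of 0.60 (SE 0.20) missed the threshold at an adjusted p of 0.0588 by edgeR. B2m passed it by DESeq2, when genes under a mean of 5 CPM were left out, and without DEX+TNF libraries 3 and 4.

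The transport and loading genes had the largest fold changes of the 10 together with Psmb8. Tap1, which forms the peptide transporter with Tap2, was at 6.43, 7.47, 8.70 and 5.53 CPM in PBS+PBS and at 21.0, 49.0, 30.8 and 45.7 CPM in PBS+TNF, a log2 fold change of 2.38 (SE 0.47, adjusted p = 0.00412 by edgeR). Tap2 was at 7.45, 9.77, 10.8 and 5.02 CPM in PBS+PBS and at 35.1, 74.5, 46.0 and 63.5 CPM in PBS+TNF, a log2 fold change of 2.72 (SE 0.57, adjusted p = 0.00570 by edgeR). Tapbp, or tapasin, bridges the transporter and the empty heavy chain. It was at 27.8, 41.5, 38.9 and 29.1 CPM in PBS+PBS and at 78.2, 169.7, 130.5 and 171 CPM in PBS+TNF, a log2 fold change of 2.00 (SE 0.47, adjusted p = 0.0107 by edgeR). In all 3 genes PBS+TNF library 1 was the lowest of its group and still above every PBS+PBS library. Tap1, Tap2 and Tapbp were called whichever of the 16 libraries was left out.

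Psmb8, Psmb9 and Psmb10 take the places of Psmb5, Psmb6 and Psmb7 in the catalytic core of the immunoproteasome. Psmb8 was at 2.66, 8.04, 7.80 and 10.05 CPM in PBS+PBS and at 48.5, 30.7, 31.6 and 30.5 CPM in PBS+TNF (log2 fold change 2.31, SE 0.45, adjusted p = 0.00409 by edgeR). Psmb10 was at 9.42, 13.9, 15.6 and 37.7 CPM in PBS+PBS and at 84.8, 50.0, 72.6 and 54.6 CPM in PBS+TNF (log2 fold change 1.78, SE 0.42, adjusted p = 0.0111 by edgeR). Neither gene overlapped between the groups, and both were called whichever library was left out. Psmb9 was at 0.600, 2.94, 4.22 and 8.67 CPM in PBS+PBS and at 15.2, 9.47, 13.1 and 14.4 CPM in PBS+TNF (log2 fold change 1.69, SE 0.51, adjusted p = 0.0393 by edgeR). The Psmb9 groups were separated by less than 1 CPM, between PBS+PBS library 4 and PBS+TNF library 2. Its call was lost when any 1 of 9 libraries was left out (PBS+PBS 1, 2 or 3, PBS+TNF 1, 2, 3 or 4, DEX+PBS 1 or 2), with an adjusted p of 0.00747 to 0.110 and a log2 fold change of 1.33 to 2.28 over the 16 libraries left out in turn. It was also lost without a filter on low counts (adjusted p = 0.0659 by edgeR) and when only these 2 groups were fitted (adjusted p = 0.0708 by edgeR).

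The constitutive subunits stayed at values that overlapped between the groups. Psmb5 was at 8.48, 11.7, 8.76 and 31.3 CPM in PBS+PBS and at 32.6, 9.41, 15.3 and 10.3 CPM in PBS+TNF, with a log2 fold change of 0.15 (SE 0.46). Psmb6 had -0.08 (SE 0.48) and Psmb7 0.06 (SE 0.31), and none of the 3 was called. PBS+PBS library 4 and PBS+TNF library 1, the libraries with the largest share of Defa counts, were the highest of their groups for all 3 constitutive subunits. They were also the highest of their groups for Psmb8, Psmb9 and Psmb10. The part of the Defa share in these values was not tested.

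Each immunoproteasome subunit was set against its constitutive counterpart in the same library, per transcript length. The ratio of Psmb8 to Psmb5 was 0.316, 0.685, 0.890 and 0.322 in PBS+PBS and 1.49, 3.26, 2.07 and 2.96 in PBS+TNF. The log2 difference was 2.22 (exact permutation test, two-sided, 4 against 4 libraries, p = 0.0286, adjusted over the 3 ratios p = 0.0429). The ratio of Psmb10 to Psmb7 was 0.388, 0.531, 0.805 and 0.769 in PBS+PBS and 1.71, 2.74, 2.51 and 1.98 in PBS+TNF, with a log2 difference of 1.88 and the same permutation p, which is the smallest that 70 assignments allow. In RNA per transcript length, Psmb8 and Psmb10 were thus below their counterparts in all PBS+PBS libraries and above them in all PBS+TNF libraries. Protein was not measured in these samples, and a ratio above or below 1 depends on the annotated lengths. The ratio of Psmb9 to Psmb6 was 0.0172, 0.0778, 0.138 and 0.0642 in PBS+PBS and 0.135, 0.324, 0.262 and 0.388 in PBS+TNF. Its groups overlapped by PBS+TNF library 1, and the log2 difference of 2.14 did not pass (exact permutation p = 0.0571, adjusted p = 0.0571). Psmb9 thus remained below Psmb6 in every library.

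**Figure D2:**
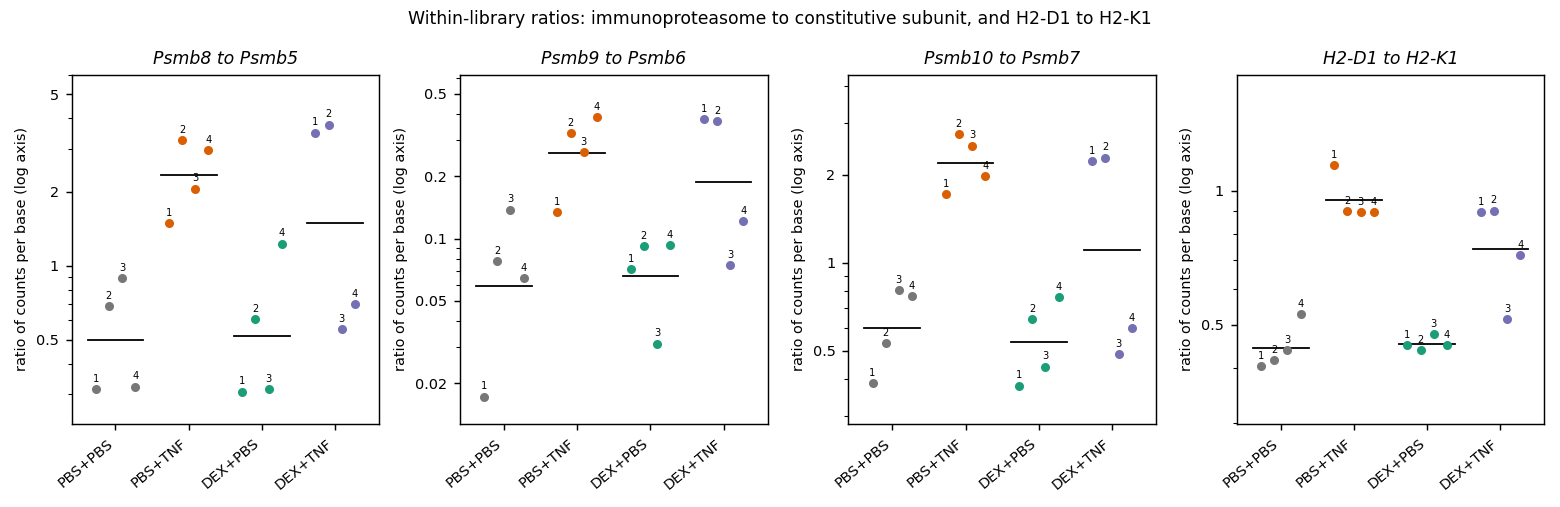
Ratio of counts per base of transcript in each library (vertical log axis) for Psmb8 to Psmb5, Psmb9 to Psmb6, Psmb10 to Psmb7 and H2-D1 to H2-K1; points are libraries with their replicate number and bars are geometric means of 4. The Psmb8 to Psmb5 ratio is 0.316 to 0.890 in PBS+PBS and 1.49 to 3.26 in PBS+TNF.

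Nlrc5, a transactivator of class I genes, had 2 to 31 counts per library in PBS+PBS and 9 to 51 in PBS+TNF. It was at 0.343, 0.192, 1.66 and 0.251 CPM in PBS+PBS and at 1.73, 3.07, 2.39 and 2.38 CPM in PBS+TNF. The groups did not overlap, and the log2 fold change of 1.90 (SE 0.72) missed the threshold at an adjusted p of 0.0945 by edgeR. PBS+PBS library 3 stood apart from the other 3, and without it Nlrc5 was called, at the highest log2 fold change over the libraries left out, 3.17, and an adjusted p of 0.0182. DESeq2 called Nlrc5 with all libraries (adjusted p = 0.0473).

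DEX alone was compared with PBS in DEX+PBS and PBS+PBS. None of the 10 members was called, against 0.00847% of all genes tested (edgeR, 1 gene), and none had an unadjusted p under 0.05. DESeq2 called no member either. The log2 fold changes ran from -0.48 to 0.32 with a median of 0.04, and their SEs from 0.20 to 0.73. All 10 members overlapped between the groups, while 1.88% of all genes tested did not overlap in either direction. The values furthest from 0 were those of Psmb10 (-0.48, SE 0.42) and Psmb9 (-0.45, SE 0.52) on the lower side, and of H2-D1 (0.32, SE 0.31) and Tapbp (0.29, SE 0.46) on the upper side. Leaving out PBS+PBS library 4 turned Psmb9 to 0.15 and Psmb10 to 0.06. H2-K1 was at 315 to 456 CPM, B2m at 214 to 265 CPM and Tap1 at 3.32 to 9.02 CPM in DEX+PBS. The ratio of Psmb8 to Psmb5 was 0.308 to 1.23 in DEX+PBS, with a log2 difference of 0.06 to PBS+PBS (exact permutation p = 1.00, adjusted p = 1.00).

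The effect of DEX before TNF was read from DEX+TNF against PBS+TNF. No member was called, against 0.339% of all genes tested (edgeR), and DESeq2 called none. The log2 fold changes of all 10 were below 0, with a median of -0.49 against 0.03 for all genes tested. Other proteasome genes were lower too, with none called. All 11 other subunits of the 20S core (median -0.65) and all 5 activator and assembly genes (-0.52) were below 0. All 3 constitutive subunits were as well (-0.40), and 4 of 8 other peptide loading and trimming genes (-0.01). PBS+TNF library 1 was the highest of its group in the constitutive subunits, at 32.6, 86.9 and 43.7 CPM for Psmb5, Psmb6 and Psmb7. PBS+TNF libraries 2 to 4 were at 9.41 to 15.3, 22.4 to 38.5 and 16.1 to 25.5 CPM. DEX+TNF was at 7.02 to 15.9, 25.0 to 47.8 and 17.7 to 29.5 CPM. The list medians are not given without PBS+TNF library 1. For 2 members, Psmb8 (-1.01, SE 0.43) and Psmb10 (-1.05, SE 0.41), the unadjusted p was under 0.05, and the lowest adjusted p was 0.320. In Psmb8, Psmb10 and Nlrc5 the 4 DEX+TNF libraries lay below the 4 PBS+TNF libraries, as in 2.91% of all genes tested. Nlrc5 was at 1.21, 0.970, 1.33 and 0.299 CPM in DEX+TNF, a log2 fold change of -1.36 (SE 0.71).

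The DEX+TNF libraries fell into separate levels for most members. Tap1 was at 27.8, 38.8, 7.04 and 9.32 CPM in DEX+TNF libraries 1 to 4. Tap2 was at 64.2, 80.4, 6.84 and 12.4 CPM, and Tapbp at 182, 198, 28.3 and 53.5 CPM. Libraries 1 and 2 were thus near PBS+TNF in the loading genes, and libraries 3 and 4 near PBS+PBS. Psmb8 was at 24.6, 28.4, 8.78 and 8.18 CPM, Psmb9 at 12.3, 13.1, 4.59 and 5.14 CPM and Psmb10 at 44.6, 48.9, 16.2 and 17 CPM. In Psmb8 and Psmb10, libraries 1 and 2 were below the lowest PBS+TNF library, and far above libraries 3 and 4. H2-D1 was at 437, 500.1, 177 and 237 CPM and B2m at 303, 332, 232 and 241 CPM. H2-K1 was at 373, 424, 264 and 253 CPM, also lower in libraries 3 and 4.

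Of the 7 members called with TNF after PBS, 5 were at or above the lowest PBS+TNF library in each of DEX+TNF libraries 1 and 2, and the other 2 lay between the groups. In library 3 all 7 were at or below the highest PBS+PBS library, and in library 4, 3 were and 4 lay between. In DEX+PBS, which had no TNF, 7, 6, 7 and 3 of them were at or below the highest PBS+PBS library, and the rest lay between. The ratio of Psmb8 to Psmb5 was 3.49, 3.76, 0.552 and 0.698 in DEX+TNF and that of Psmb10 to Psmb7 was 2.22, 2.28, 0.487 and 0.596. In libraries 1 and 2 the Psmb8 ratios were above the highest PBS+TNF library and the Psmb10 ratios within the PBS+TNF range, unlike the CPM of both genes. The exact permutation test of the 3 ratios between DEX+TNF and PBS+TNF gave an adjusted p of 0.543 for each. DEX+TNF library 4 also had the highest summed level of 5 tuft cell markers (572 CPM, 0.162 to 155 in the others) and of enterocyte markers (416 CPM, 18.9 to 363 in the others), and the part of such cells in its values was not tested.

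TNF after DEX was read from DEX+TNF against DEX+PBS. No member was called, against 0.339% of all genes tested (edgeR), while DESeq2 called Tap1 and Tap2. The share of all genes that DESeq2 called is not given. The log2 fold changes were above 0 for 9 of 10 members, with a median of 1.23 against 0.03 for all genes tested, and 6 members had an unadjusted p under 0.05. Tap2 had the highest value, 2.30 (SE 0.56, adjusted p = 0.103), followed by Tap1 with 1.72 (SE 0.46, adjusted p = 0.131). Psmb9, with 1.57 (SE 0.52, adjusted p = 0.231), was the 1 member whose 4 DEX+TNF libraries lay above the 4 DEX+PBS libraries, as in 2.06% of all genes tested. H2-K1 had -0.19 (SE 0.29).

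DEX+TNF libraries 3 and 4 decided these counts. Without library 3, Tap1, Tap2 and Tapbp were called in DEX+TNF against DEX+PBS, among 362 genes in all, and without library 4, Tap1 and Tap2, among 230.0 genes in all. Without both, 7 members were called, the 7 genes called in PBS+TNF against PBS+PBS, among 1286 genes in all. Tap2 then had a log2 fold change of 3.12 (SE 0.31), Tap1 2.40 (SE 0.36), Tapbp 2.18 (SE 0.30) and H2-D1 1.08 (SE 0.28), with 2 DEX+TNF libraries left. Those 2 were the most alike of the 24 pairs of libraries within groups. Against PBS+TNF, no member was called without both, the median moved from -0.49 to -0.02, and H2-K1 (0.26), H2-D1 (0.21), Tap2 (0.40) and Tapbp (0.47) turned above 0. Psmb8 (-0.40, SE 0.42), Psmb10 (-0.48, SE 0.41) and Nlrc5 (-1.14, SE 0.83) remained below 0. These libraries were left out after their values had been seen, so the values without them are a description.

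**Figure D3:**
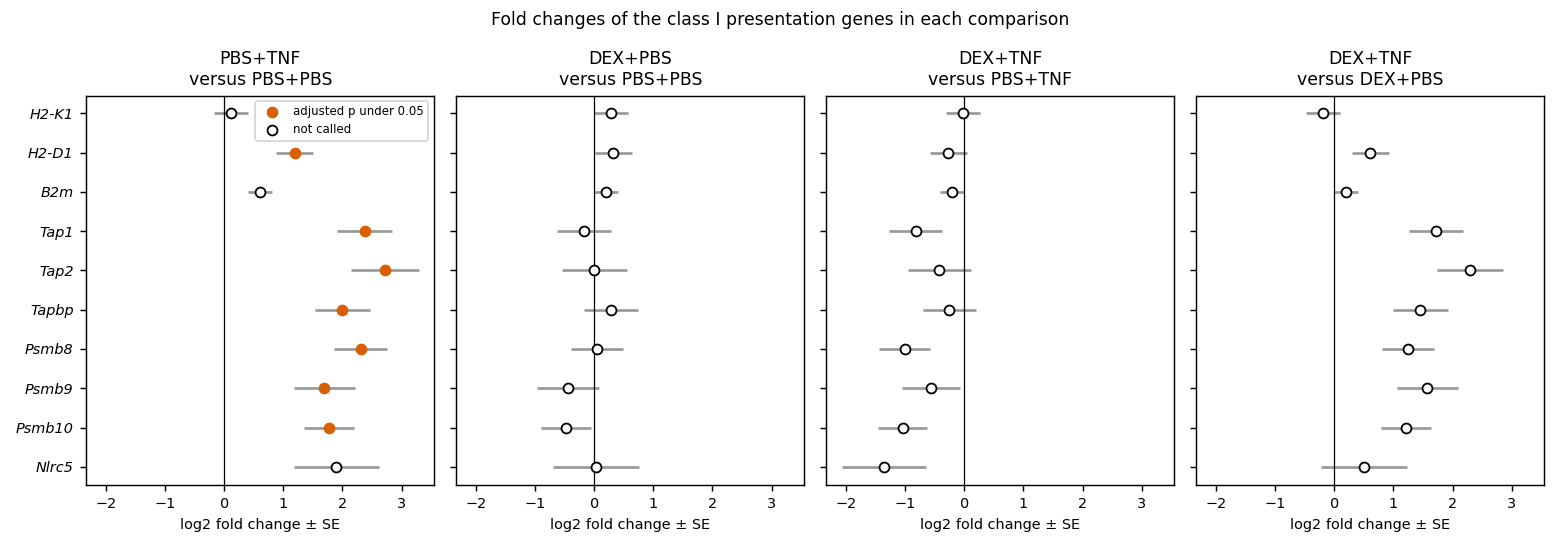
Log2 fold change (horizontal axis) of the 10 genes in the 4 pairwise comparisons, fitted with edgeR over all 16 libraries; bars are SE and filled points have an adjusted p under 0.05. The 7 filled points are all in PBS+TNF versus PBS+PBS; comparisons in neighbouring panels share groups.

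The interaction, in which the response to TNF with PBS first is subtracted from the response with DEX first, was tested directly. No member was called, as with all genes tested (0% called by edgeR, 642 genes at an unadjusted p under 0.05 and none of the members), and DESeq2 called no member. The 10 values lay between -1.39 (Nlrc5, SE 1.02) and -0.12 (Psmb9, SE 0.72), with a median of -0.55 against 0.05 for all genes tested. With all 16 libraries, all 11 other subunits of the 20S core were below 0 too (median -0.28), while 6 of 15 regulators of class I transcription were above 0. Without DEX+TNF libraries 3 and 4 the median of the members was -0.02, and Tap1, Tap2, Tapbp and Psmb9 lay above 0. A difference between the responses to TNF with and without DEX was thus not shown for any member, at SEs of 0.28 to 1.02.

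The other genes of the pathway were followed in PBS+TNF against PBS+PBS in lists written with earlier results of these data known. In this comparison 7.15% of all genes tested were called higher (edgeR), the background for the counts of these lists. Of 8 other genes of peptide loading and trimming, 1 rose: Tapbpl, a tapasin relative, from 8.05 to 15.5 CPM in PBS+PBS to 57.8 to 94.1 CPM in PBS+TNF (log2 fold change 2.62, SE 0.58, adjusted p = 0.00773 by edgeR). The chaperones Calr, Canx and Pdia3 had values from -0.20 to 0.17 and were not called. The list median was 0.04. Of 16 other class I and class I-like heavy chains, 12 were tested and 3 were called higher, with a median of -0.06. H2-Q4 went from 1.97 to 8.06 CPM to 23.7 to 45.4 CPM (log2 fold change 3.05, SE 0.56, adjusted p = 0.00260 by edgeR). The others called, H2-Q6 and H2-Q7, were named after their values were seen, and members of the H2-Q family are near-identical copies whose counts are uncertain.

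Other proteasome genes were followed in separate lists. None of 11 other subunits of the 20S core was called, with a median log2 fold change of 0.38 and a lowest adjusted p of 0.362. Of 5 activator and assembly genes, Psme2, a subunit of the 11S regulator that caps the proteasome, was called (1.69, SE 0.52, adjusted p = 0.0426 by edgeR). The call was lost with upper-quartile factors (adjusted p = 0.0535 by edgeR), without a filter on low counts (0.112), at a mean of at least 5 CPM (0.0506) and when only these 2 groups were fitted (0.105). It was also lost when any 1 of 8 libraries was left out (PBS+PBS 1, 2 or 3, PBS+TNF 1 or 3, DEX+PBS 1, 2 or 4), with a log2 fold change of 1.04 to 2.57 over the 16 libraries left out in turn. The groups of Psme2 overlapped, at 14.6, 15.6, 16.4 and 70.1 CPM in PBS+PBS and 196, 49.6, 77.6 and 51.9 CPM in PBS+TNF. Psme1, its partner, had 0.79 (SE 0.30, adjusted p = 0.0980), and was called without PBS+PBS library 4 (adjusted p = 0.00336 by edgeR). PBS+PBS library 4 was the highest of its group in Psme1 and Psme2 too.

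Of 15 regulators of class I transcription, 6 were called higher, with a list median of 0.87, against 7.15% of all genes tested called higher (edgeR). Irf1, an interferon regulatory factor that binds class I promoters, was at 20.5 to 27.3 CPM in PBS+PBS and 107 to 120.1 CPM in PBS+TNF (log2 fold change 2.24, SE 0.39, adjusted p = 0.00203 by edgeR). The NF-kB subunits Rela (2.17, SE 0.52) and Nfkb1 (1.84, SE 0.44) were called as well. Stat2 and Irf9, named after their values were seen, were called too. The subunits of RFX and NF-Y, which bind class I promoters together with Nlrc5, were not called. Of 9 receptors and kinases upstream of these factors, 5 were called higher, with a median of 1.52: the TNF receptor Tnfrsf1b (3.38, SE 0.60), the interferon receptor chains Ifngr2 (2.24, SE 0.35) and Ifnar1 (1.83, SE 0.39) and, named after their values were seen, Jak2 and Ifngr1.

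Class II molecules show peptides from outside the cell to helper T cells. Of 12 class II genes, 8 were tested and none was called by edgeR, with a median log2 fold change of -0.02 and 1 gene at an unadjusted p under 0.05. Irf1 and Tapbpl were higher in DEX+TNF libraries 1 and 2 than in libraries 3 and 4. Irf1 was at 91.3, 101, 25.2 and 22.9 CPM in DEX+TNF libraries 1 to 4, and Tapbpl at 85.6, 108, 10.6 and 9.77 CPM. With all 16 libraries, edgeR called no gene of these lists in the other comparisons. DESeq2 called 7 of 71 tested in DEX+TNF against DEX+PBS, all higher, with no share of all genes beside the count. In that comparison edgeR called 11 of 72 without DEX+TNF library 3, 7 without library 4 and 17 without both, all higher. Over all genes tested these fits called 362, 230.0 and 1286 genes. Of the 17, 8 were regulators of class I transcription, 7 were receptors and kinases, and the others were Tapbpl and H2-Q4. Without both libraries none was called against PBS+TNF or in the interaction.

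**Figure D4:**
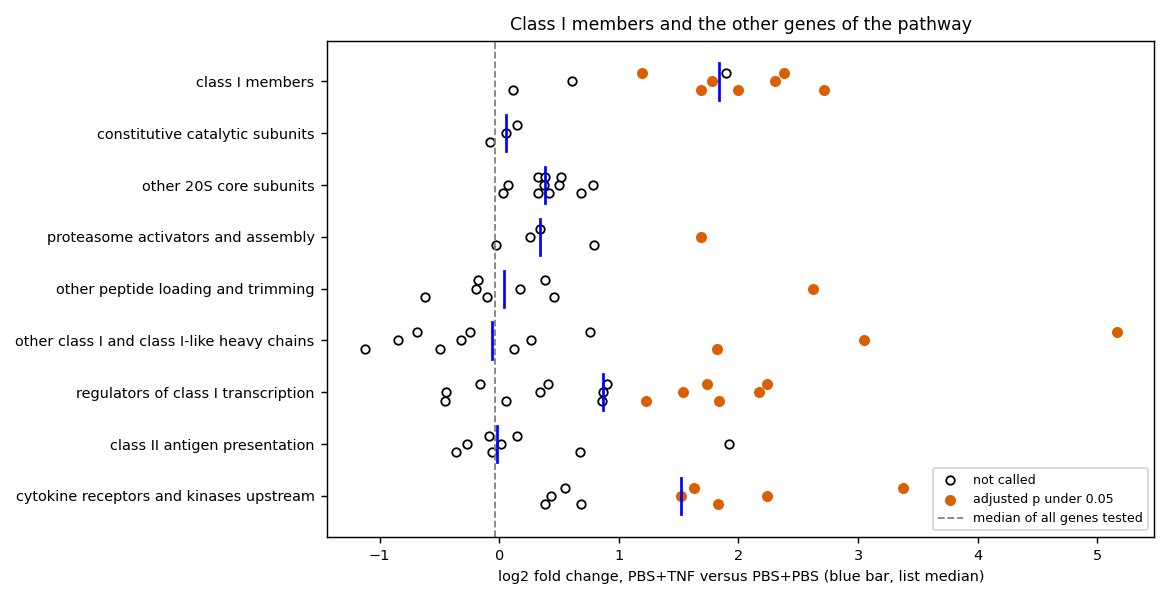
Log2 fold change of each tested gene in PBS+TNF versus PBS+PBS (horizontal axis) by list, for the 10 members and 8 lists of related genes; filled points have an adjusted p under 0.05, blue bars are list medians and the dashed line is the median of all genes tested, -0.03. Class I members have a median of 1.84, constitutive catalytic subunits 0.06 and class II genes -0.02.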

How the data were processed

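The members and the gene lists were chosen with earlier results of these data known. Groups and replicate numbers came from the labels, and nothing in the labels ties equal numbers across groups. The authors deposited raw read counts per Ensembl gene for 16 libraries. Per the labels, RNA was extracted with the Aurum Total RNA Mini kit and made into TruSeq Stranded mRNA libraries, and the submitters' processing notes name FastQC 0.12, STAR 2.7.10a and DESeq2 on mm39. The counting program, its use of strand and its handling of reads that match several genes are not given in the sources used here. Gene positions and transcript lengths were taken from GENCODE M39 (GRCm39), which held 54749 of the 55414 identifiers, and upstream windows from RefSeq (GRCm38.p6).

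Genes were kept with filterByExpr (11809 genes), and library sizes were scaled by TMM (factors 0.418 to 1.50). In edgeR 4.0.16, 1 quasi-likelihood model with 4 group means took in the 16 libraries. It gave the 4 comparisons of groups with 1 injection in common, and the interaction, with Benjamini-Hochberg adjustment over all genes tested and a threshold of 0.05. The SE is the log2 fold change divided by the square root of F. The fit was tested on simulated data. CPM per kilobase divides CPM by the canonical transcript length. Subunit ratios used counts plus 0.5 and an exact permutation test, two-sided, 4 libraries against 4 (smallest possible p = 0.0286), adjusted over 3 ratios in each comparison (scipy 1.17.1). In 24 pairs of libraries within groups the chi-square per degree of freedom was at least 8.78, and all libraries were counted separately. The lowest value was that of DEX+TNF libraries 1 and 2, and the next was 23.5 (PBS+PBS libraries 2 and 3). Such values do not show that libraries are independent. The edgeR p-values set a difference between groups against the spread between these libraries, and the permutation p-values count assignments of libraries to groups. Depth limits genes with few counts such as Nlrc5.

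The text names the 10 members, Psmb5, Psmb6, Psmb7, Psme1, Psme2 and Irf1, and from each other list the 3 called genes with the largest log2 fold change in PBS+TNF versus PBS+PBS among those with a mean of at least 5 CPM. A few genes of this rule and of the marker lists are not reported here. Alternatives were RLE and upper-quartile factors, TMM without Defa genes, a filter at a mean of 5 CPM or none, a replicate block, DESeq2 1.42.0, the 2 compared groups alone, each library left out in turn and a pseudocount of 5 in the ratios. Fits without 2 libraries together were added after the data had been seen. Counts called by DESeq2 are given without the share of all genes that it called, so they have no background beside them.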

Additional observations from a re-analysis of the deposited data

Results flagged for a closer look

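In 52 groups of 4 libraries (10 members and 3 subunit ratios in each of 4 groups), 3 libraries stood apart from the rest of their group by Dixon's ratio of gap to range at the 95% critical value. Chance alone gives about 1 in 20 such groups. Psmb8 in PBS+TNF library 1 was at 48.5 CPM, against 30.5 to 31.6 CPM in the other libraries of the group (ratio 0.938). Nlrc5 in PBS+PBS library 3 was at 1.66 CPM, against 0.192 to 0.343 CPM in the others (ratio 0.897), and in DEX+PBS library 4 at 1.58 CPM, against 0.229 to 0.364 CPM (ratio 0.900). Psmb8 remained called without PBS+TNF library 1, and Nlrc5 was called without PBS+PBS library 3.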

How the results depend on the processing

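In PBS+TNF versus PBS+PBS, 7 members were called with RLE factors, upper-quartile factors, TMM without Defa genes and without PBS+PBS library 4 and PBS+TNF library 1 together, 6 without a filter or with the 2 groups alone (Psmb9 lost in both), 8 of 9 tested at a mean of at least 5 CPM, 8 without DEX+TNF libraries 3 and 4, 9 by DESeq2, and 5 to 7 with a library left out. The DESeq2 counts have no share of all genes beside them. Upper-quartile factors moved the median of all genes from -0.03 to -0.15. Relative to that median H2-K1 was at 0.15, while its value was -0.00041 and that of Psmb7 -0.050; in DEX+TNF versus PBS+TNF H2-K1 turned to 0.0078. In DEX+TNF versus DEX+PBS, 0 members were called, but 2 by DESeq2, 0 to 3 with a library left out and 7 without DEX+TNF libraries 3 and 4.

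Without DEX+TNF libraries 3 and 4, values turned above 0 in DEX+TNF versus PBS+TNF for H2-K1 (0.26), H2-D1 (0.21), Tap2 (0.40), Tapbp (0.47) and the ratios of Psmb8 to Psmb5 (0.63), Psmb9 to Psmb6 (0.53) and Psmb10 to Psmb7 (0.034), in DEX+TNF versus DEX+PBS for H2-K1 (0.086), and in the interaction for Tap1 (0.024), Tap2 (0.40), Tapbp (0.18) and Psmb9 (0.40). Without PBS+PBS library 4 and PBS+TNF library 1, Psmb6 turned to 0.15 with TNF, and in DEX+PBS versus PBS+PBS Psmb9 to 0.16, Psmb10 to 0.072 and Nlrc5 to -0.18. Tap2 in DEX+PBS versus PBS+PBS was at 0.0034 without a filter.

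With a library left out, uncalled values that changed sign ranged, in PBS+TNF versus PBS+PBS, from -0.030 to 0.32 for H2-K1, -0.36 to 0.75 for Psmb5, -0.63 to 0.67 for Psmb6 and -0.26 to 0.38 for Psmb7. In DEX+PBS versus PBS+PBS they ranged from -0.41 to 0.028 for Tap1, -0.18 to 0.15 for Tap2, -0.32 to 0.24 for Psmb8, -0.81 to 0.15 for Psmb9, -0.70 to 0.062 for Psmb10, -1.08 to 1.30 for Nlrc5, and -0.36 to 0.33, -0.42 to 0.58 and -0.37 to 0.0057 for the ratios of Psmb8, Psmb9 and Psmb10. In DEX+TNF versus PBS+TNF they ranged from -0.21 to 0.088 for H2-K1 and -0.65 to 0.070 for Tapbp, and in the interaction from -0.71 to 0.24 for Psmb9. With TNF the log2 difference of the ratio was 2.01 to 2.50 for Psmb8 to Psmb5 and 1.67 to 2.02 for Psmb10 to Psmb7. The exact test of 3 against 4 libraries cannot go below p = 0.0571, so the loss of these calls is void. Causes were not tested beyond the libraries named.

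Whether equal replicate numbers pair the samples was not tested. Of 24 same-numbered pairs, 12 had deviations correlated above 0.1 (-0.37 to 0.50), and 7 of 16 libraries correlated best with their own number. Differently numbered pairs ran from -0.56 to 0.49, and no chance level was set for these counts. With the replicate block 7 members were called in PBS+TNF versus PBS+PBS and 0 in the other comparisons, Psme2 was lost (adjusted p = 0.0680 by edgeR), and Tap2 in DEX+PBS versus PBS+PBS turned to 0.039. Depth limits Nlrc5, with 2 to 51 counts per library.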
